A study of Mus musculus with 6 samples.

Results

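Zfp genes of the mouse encode zinc finger proteins, and those described here are the ones with a symbol of Zfp followed only by digits, without Zfp36, and a mean of at least 5 CPM over all 6 libraries. CPM is here a library's reads of a gene scaled to a common total of reads assigned to genes. The table lists 33924 genes, of which 342 have such a symbol, and 242 of these reached the mean of 5 CPM. The members were thus chosen by their mean level over both genotypes, and those levels are given as a description. The marrow had been cleared of mature cells with antibodies on magnetic beads before RNA sequencing, and 3 libraries carry the genotype Stag2KO and 3 the genotype Stag2WT. The Stag2 protein belongs to cohesin, which forms rings around DNA, pairs sister chromatids and extrudes chromatin loops. The labels give no strain, age, treatment, Cre driver or time after deletion for either group. They do not say that the 3 libraries of a group came from separate mice, so the p-values measure the spread between these libraries.

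A C2H2 zinc finger is a short loop of protein folded around a zinc ion, and a row of such fingers reads a stretch of DNA base by base. Many Zfp genes also encode a KRAB box, a domain that recruits the co-repressor Trim28 and, through it, the histone methyltransferase Setdb1, and KRAB zinc finger proteins are best known for silencing transposable elements and imprinted loci. These genes multiplied by local duplication, so that many stand next to each other in clusters. Others of the name lack a KRAB box and act as promoter-binding factors, cofactors, RNA-binding proteins or ubiquitin ligases.

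The repeated finger can be read directly from the transcripts of members whose RNA differed between the genotypes. Below are stretches of the coding sequence of Zfp141, Zfp938 and Zfp945, which were higher in the Stag2KO libraries, and of Zfp39, which was lower, taken from GENCODE M21 transcripts on GRCm38. Each stretch runs 5′ to 3′ from one linker between fingers to the next, and the capitals mark the 2 linkers, which encode the conserved peptide between neighbouring fingers. They were found with a pattern that leaves the variable bases of that linker free, and stretches whose linkers start 84 bases apart, the length of a finger with its linker, were picked.
Zfp141 finger: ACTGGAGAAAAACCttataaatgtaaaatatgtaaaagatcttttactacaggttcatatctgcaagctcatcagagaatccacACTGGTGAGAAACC
Zfp938 finger: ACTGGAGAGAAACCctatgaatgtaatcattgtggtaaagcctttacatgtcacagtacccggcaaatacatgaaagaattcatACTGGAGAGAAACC
Zfp945 finger: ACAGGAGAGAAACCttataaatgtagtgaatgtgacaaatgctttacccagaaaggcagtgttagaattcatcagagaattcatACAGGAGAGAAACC
Zfp39 finger: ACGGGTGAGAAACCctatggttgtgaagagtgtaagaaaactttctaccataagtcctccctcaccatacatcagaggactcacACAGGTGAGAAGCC
The bases between the linkers differ among the 4 genes, and it is these fingers that read different DNA. The reading frame held 8 linkers in Zfp141, 7 in Zfp938, 6 in Zfp39 and 4 in Zfp945.

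The same 4 transcripts carry the KRAB box. It was searched with a pattern for a conserved part of the box, in capitals in these stretches. Members with at least 3 linkers are sorted by this pattern in what follows.
Zfp141 KRAB: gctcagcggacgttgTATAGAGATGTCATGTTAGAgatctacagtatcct
Zfp938 KRAB: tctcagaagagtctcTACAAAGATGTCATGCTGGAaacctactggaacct
Zfp945 KRAB: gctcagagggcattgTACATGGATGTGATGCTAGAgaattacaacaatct
Zfp39 KRAB: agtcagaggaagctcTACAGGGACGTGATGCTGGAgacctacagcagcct
Both patterns were read on the transcript's own strand only. Of 21877 protein-coding genes of GENCODE M21, 337 (1.54%) held at least 3 linkers and 227 (1.04%) held the KRAB pattern. A transcript without a match may still encode fingers or a KRAB box.

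The libraries held 29435651 to 37722325 reads assigned to genes. Stag2 itself stood at 169, 187 and 183 CPM in the Stag2KO libraries and at 338, 329 and 324 CPM in the Stag2WT libraries, a log2 fold change of -0.88 ± 0.06 (SE; adjusted p = 0.000278). These single-gene CPM values, and those given per library or as group means below, use library sizes scaled by edgeR's TMM factors. Means over all 6 libraries, which are set against the threshold of 5 CPM, are unscaled. Reads in no annotated gene made up 11.1%, 12.8% and 11.2% of the table total in the Stag2KO libraries and 8.84%, 8.81% and 10.1% in the Stag2WT libraries, in replicate order. The nuclear RNAs Neat1 and Malat1 were higher in Stag2KO, with log2 fold changes of 0.83 (adjusted p = 0.00637) and 0.81 (adjusted p = 0.0421). Markers of several cell types differed between the genotypes. All 9 macrophage, 7 B cell and 6 stromal markers fell, with summed levels of 275.2 to 393.5 against 1001 to 1118 CPM, 70.39 to 82.38 against 179.8 to 283.6 CPM and 59.74 to 112.4 against 220.2 to 239.5 CPM in Stag2KO against Stag2WT. All 5 eosinophil markers rose, with sums of 3666 to 5667 against 1050 to 1591 CPM, and 4 of 8 stem and progenitor cell markers rose, with sums of 8591 to 9446 against 5785 to 6991 CPM. Of 6 markers of dividing cells 3 fell, with sums of 2748 to 2960 against 3318 to 3552 CPM. Among the other lists, 3 of 5 T cell markers fell (17.31 to 50.01 against 32.89 to 74.37 CPM), 3 of 6 erythroid markers fell (683 to 841.3 against 972.2 to 1651 CPM), 3 of 8 neutrophil markers rose (10432 to 15850 against 9869 to 12018 CPM) and 1 of 5 megakaryocyte markers rose (303 to 401.9 against 262.4 to 328.7 CPM). No marker was at 0 reads in any library. In such mixed marrow, fewer cells of a type and less RNA per cell cannot be told apart, and the part of cell makeup and of reads outside genes in the Zfp values below was not tested.

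Most expressed Zfp genes did not pass the test between the genotypes, and those that did were mostly higher in Stag2KO. Of the 242 genes, 38 rose, 7 fell and 197 were not called at an adjusted p under 0.05, against a background of 22.7% called among the 10822 tested genes of at least 5 CPM and 21.2% among all 15708 tested genes. The called share of the Zfp genes was 18.6%, near that background. By direction, 15.7% of the Zfp genes rose against 11.5% of the tested genes of at least 5 CPM, and 2.89% fell against 11.2%. Across all 242 the median log2 fold change was 0.09, with quartiles of -0.02 and 0.28, beside -0.01 for the tested genes of at least 5 CPM and 0.01 for all tested genes. Log2 fold changes lay above 0 for 172 Zfp genes (71.1%), against 48.3% of the tested genes of at least 5 CPM. Adding each library's percentage of reads outside annotated genes to the model left 0 Zfp genes called by edgeR, with 15 at an unadjusted p under 0.05, and 67 of all 15708 genes called. The median log2 fold change of the Zfp genes in that fit was again 0.09, and that of Zfp141 was 0.87, of Zfp938 0.96, of Zfp286 1.05, of Zfp945 0.53, of Zfp704 0.44 and of Zfp521 0.42. Over the 38 rises the values in that fit ran from 0.08 for Zfp369, which had 0.46 without the covariate, to 1.05 for Zfp286. The covariate was higher in every Stag2KO than in every Stag2WT library, so it also takes up part of the genotype difference. With 1 library left out, the number of Zfp genes called higher was 20, 16 and 15 without replicates 1, 2 and 3 of Stag2KO. It was 28, 15 and 21 without those of Stag2WT. The number called lower was 3, 4 and 4 and 6, 3 and 5 in the same order. The called share of all tested genes fell as well, from 21.2% to 12.8%, 12.6% and 12.3% and to 15.5%, 12.4% and 15.9%.

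**Figure D1:**
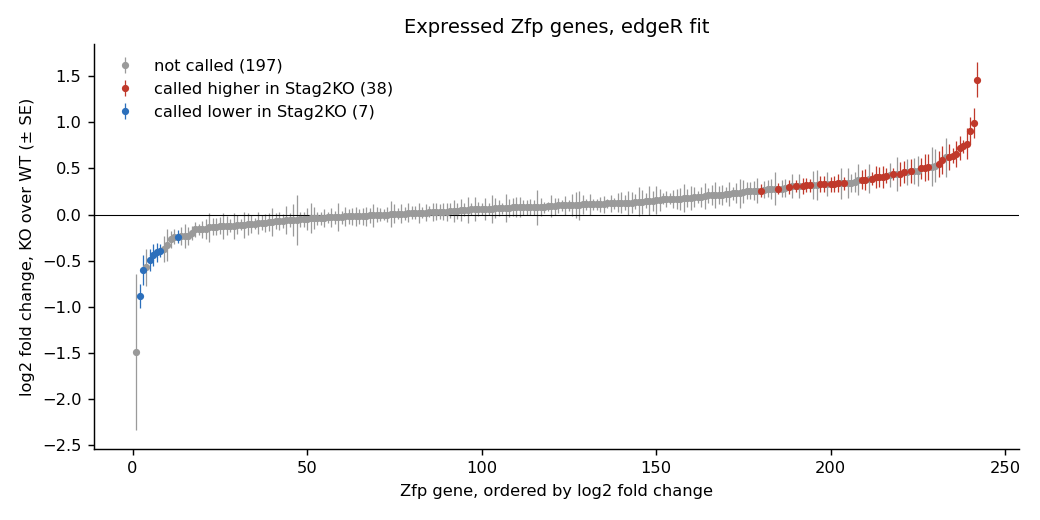
Log2 fold change of Stag2KO over Stag2WT for each of the 242 expressed Zfp genes, ordered from lowest to highest, with bars of 1 SE. The 38 genes called higher (red) and the 7 called lower (blue) lie among 197 uncalled genes (grey), and 172 of the 242 points lie above 0.

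**Figure D2:**
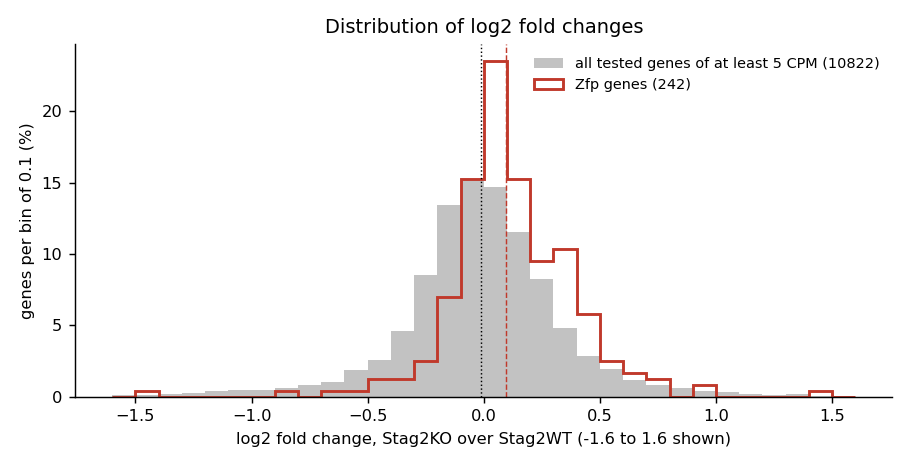
Percent of genes in each log2 fold change bin of 0.1, for the 242 Zfp genes (red outline) and the 10822 tested genes of at least 5 CPM (grey). The red dashed line is the Zfp median of 0.09 and the black dotted line the median of -0.01 of the tested genes.

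Changes of single Zfp genes were modest in size. The 38 rises had a median log2 fold change of 0.42 (range 0.26 to 1.46) and the 7 falls a median of -0.44 (range -0.88 to -0.24), and the median SE over the 242 genes was 0.10. In all 45 called genes the 3 Stag2KO values and the 3 Stag2WT values did not overlap. The groups were also apart in 50 uncalled genes that were higher and 13 that were lower in Stag2KO, so that 44.6% of the Zfp genes did not overlap, beside 46.7% of the tested genes of at least 5 CPM. By direction, the latter were apart upward in 23.1% and downward in 23.6%. A change of more than 1.5-fold was measured in 11 genes upward and 3 downward.

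The threshold on the mean bears on the weakest genes. Means of the 242 genes ran from 5.10 to 504 CPM with a median of 23.8 CPM, against a median of 45.9 CPM for the tested genes of at least 5 CPM. Of the members, 7 had a Stag2WT mean under 5 CPM and entered through their Stag2KO values, namely Zfp3, Zfp11, Zfp28, Zfp184, Zfp286, Zfp867 and Zfp938, and 5 of these are among the called rises. Zfp429 and Zfp583 had a Stag2KO mean under 5 CPM, and neither was called. These group means are TMM scaled, and that of Zfp583 in Stag2KO, 4.984 CPM, lay only just under 5. Just inside the threshold lay Zfp28 and Zfp583, both with a mean of 5.10 CPM, and Zfp772, and their log2 fold changes were 0.77, -0.06 and -0.12. Just outside it, Zfp667 had a mean of 4.94 CPM and a log2 fold change of 0.00, Zfp784 of 4.83 CPM and 0.45, and Zfp827 of 4.80 CPM and 1.34. Of all Zfp genes under 5 CPM, 66 could be tested, of which 8 rose and 1 fell, with a median log2 fold change of 0.24. Their called share was 13.6%, beside 21.2% of all tested genes, whose median was 0.01. At 5 to 10 CPM 9 of 48 members rose and 2 fell, at 10 to 20 CPM 4 of 58 rose and 1 fell, at 20 to 50 CPM 17 of 87 rose and 1 fell, and at 50 CPM and above 8 of 49 rose and 3 fell. The medians in these 4 levels were 0.14, 0.14, 0.08 and 0.06. Called shares were 22.9%, 8.62%, 20.7% and 22.4%, beside 22.7% of all tested genes of at least 5 CPM. All tested genes were not split by these levels, so a trait of Zfp genes and an effect of level cannot be told apart here.

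Zfp286 showed the largest rise. It stood at 7.23, 9.61 and 8.09 CPM in the Stag2KO libraries and at 3.42, 2.43 and 3.19 CPM in the Stag2WT libraries, a log2 fold change of 1.46 ± 0.19 (adjusted p = 0.00214). Every Stag2KO library exceeded every Stag2WT library, and this was the only member that rose by more than 2-fold. With a Stag2WT mean of 3.013 CPM, Zfp286 entered through its Stag2KO values, as did Zfp938 and Zfp28 below. The separation of the groups in these 3 genes is therefore a description. The KRAB gene Zfp938 stood at 8.98, 9.67 and 8.33 CPM against 5.43, 4.03 and 4.13 CPM (0.99 ± 0.16, adjusted p = 0.00508). Zfp945, also a KRAB gene, measured 24.1, 34.0 and 29.2 CPM in Stag2KO and 17.6, 13.0 and 15.7 CPM in Stag2WT (0.91 ± 0.15, adjusted p = 0.00589). Both groups were again apart in these genes, although Zfp945 spread widely among its Stag2KO libraries. Zfp28, at 6.13, 6.62 and 6.47 CPM against 4.62, 3.23 and 3.45 CPM, rose by a log2 fold change of 0.77 ± 0.17 (adjusted p = 0.0189). Its adjusted p was 0.0559 without Stag2KO replicate 2, 0.0565 without Stag2WT replicate 2 and 0.054 without Stag2WT replicate 3.

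More abundant members rose too. Zfp141, whose fingers and KRAB box are printed above, had the smallest adjusted p of the rises, with 98.4, 93.8 and 98.9 CPM in Stag2KO and 62.5, 55.9 and 55.5 CPM in Stag2WT (0.74 ± 0.07, adjusted p = 0.000677). Zfp704 measured 107, 113 and 113 CPM against 70.5, 52.8 and 78.5 CPM (0.72 ± 0.13, adjusted p = 0.0109). The Stag2KO values of both genes were close to each other, while those of Zfp704 in Stag2WT varied more. Zfp523, the mouse counterpart of ZNF76 and a close relative of the promoter factor Zfp143, stood at 34.9, 32.6 and 33.4 CPM against 21.2, 20.9 and 22.8 CPM (0.64 ± 0.08, adjusted p = 0.00201). Zfp521, a cofactor of stem and progenitor cells that antagonizes the B cell factor Ebf1, measured 8.81, 10.9 and 10.8 CPM against 6.43, 6.08 and 6.79 CPM (0.66 ± 0.14, adjusted p = 0.0126). It rose beside stem and progenitor cell markers, of which 4 of 8 rose. Calls of Zfp286, Zfp938, Zfp945, Zfp141, Zfp704, Zfp523 and Zfp521 were kept when any 1 library was left out. Zfp286, Zfp141 and Zfp704 overlap the gene models Zfp286os, Gm19246 and C030034L19Rik in RefSeq, and since the strand setting is not given, reads of overlapping genes cannot be told apart.

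The 7 falls were led by Zfp39, a KRAB gene, with 10.2, 11.3 and 10.9 CPM in Stag2KO and 20.2, 22.8 and 16.4 CPM in Stag2WT (-0.88 ± 0.13, adjusted p = 0.00422). Zfp238, the repressor now named Zbtb18, stood at 87.1, 77.6 and 86.0 CPM against 105, 111 and 113 CPM (-0.39 ± 0.07, adjusted p = 0.00635). In both genes every Stag2KO library lay under every Stag2WT library, and both calls were kept when any 1 library was left out. Zfp367 measured 63.3, 67.1 and 59.6 CPM against 80.4, 96.6 and 76.1 CPM (-0.41 ± 0.10, adjusted p = 0.0209), and its adjusted p was 0.0569 without Stag2KO replicate 1 and 0.0677 without Stag2KO replicate 3. Zfp456 stood at 7.51, 7.11 and 5.32 CPM against 9.21, 10.5 and 10.6 CPM (-0.60 ± 0.16, adjusted p = 0.0315). Without Stag2KO replicates 2 or 3 or Stag2WT replicates 2 or 3 the adjusted p of Zfp456 was 0.0639, 0.0866, 0.0895 and 0.0785.

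The other falls were smaller or less stable. Zfp948 measured 6.92, 7.16 and 8.02 CPM in Stag2KO and 10.2, 10.5 and 10.3 CPM in Stag2WT (-0.49 ± 0.12, adjusted p = 0.0229), and leaving out any library other than Stag2KO replicate 3 gave an adjusted p of 0.052 to 0.0733. Zfp637 stood at 18.4, 19.0 and 16.6 CPM against 22.8, 28.3 and 22.3 CPM (-0.44 ± 0.12, adjusted p = 0.0328). Its adjusted p was 0.0709, 0.0623 and 0.104 without Stag2KO replicates 1, 2 and 3 and 0.0761 without Stag2WT replicate 2. In Zfp800, which overlaps the gene model 6530409C15Rik, 64.8, 72.6 and 65.0 CPM stood against 81.2, 80.9 and 77.3 CPM (-0.24 ± 0.07, adjusted p = 0.037). That call was lost without Stag2KO replicates 1 or 3 (0.114 and 0.136) and without Stag2WT replicates 1, 2 or 3 (0.0898, 0.0763 and 0.0561).

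**Figure D3:**
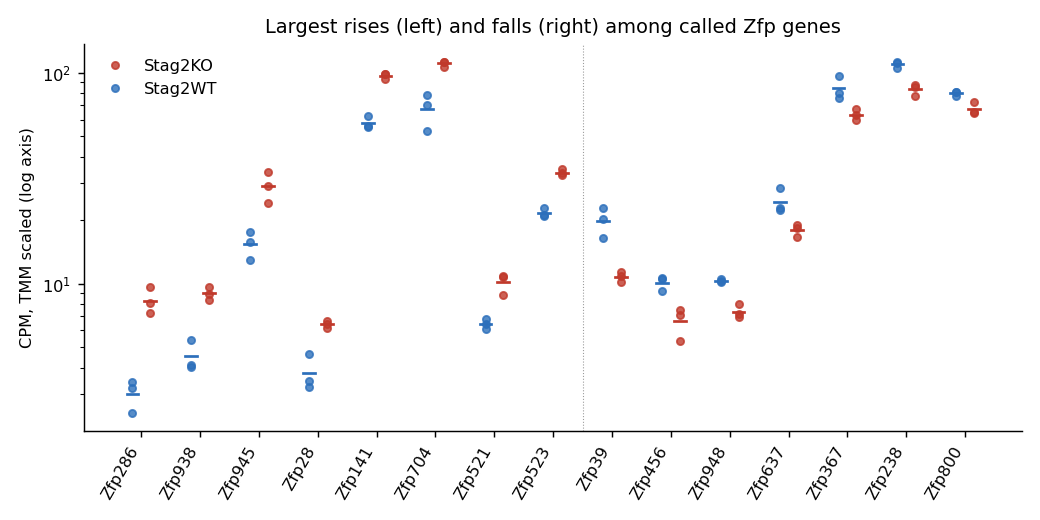
CPM (TMM scaled, log axis) in each library for the 8 largest rises, to the left of the dotted line, and the 7 falls, to its right; points are libraries and short lines group means, Stag2KO in red and Stag2WT in blue. The 3 points of each colour stay apart in all 15 genes, from Zfp286 (1.46) at the left to Zfp800 (-0.24) at the right.

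Genes that act on chromatin or as promoter factors, a list of 20 names chosen for known roles, held 17 members, of which 3 rose and 1 fell with a median log2 fold change of 0.08. Their called share was 23.5%, near the 22.7% of the tested genes of at least 5 CPM. Zfp217, a partner of the CoREST and CtBP co-repressors, measured 130, 128 and 127 CPM in Stag2KO against 105, 90.4 and 113 CPM in Stag2WT (0.32 ± 0.08, adjusted p = 0.0298). Its adjusted p was 0.0804, 0.0734 and 0.0669 without Stag2KO replicates 1, 2 and 3 and 0.0649 without Stag2WT replicate 1. Zfp219 stood at 69.1, 68.2 and 68.9 CPM against 48.7, 50.4 and 53.2 CPM (0.44 ± 0.06, adjusted p = 0.0032). Zfp687, which binds the histone reader Zmynd8 together with Zfp592, rose from 55.9, 49.9 and 55.9 CPM in Stag2WT to 74.4, 68.2 and 69.9 CPM in Stag2KO (0.39 ± 0.07, adjusted p = 0.00821). The groups were apart in all 3 genes, and the calls of Zfp219 and Zfp687 held without any 1 library. Zfp219 overlaps Arhgef40 and Tmem253, and Zfp687 overlaps Pi4kb, so their reads may be shared with those genes. The member that fell was Zfp238, described above.

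The other 13 of these members were not called. Zfp143, which binds promoters at the ends of chromatin loops, had a log2 fold change of -0.01, and Zfp609, a partner of the cohesin loader Nipbl, of 0.10. The GC-box factors Zfp148 and Zfp281 measured 0.09 and 0.02, Zfp592 0.05, the Ehmt2 partner Zfp644 0.10, Zfp384 0.12 and Zfp335 0.08. Zfp410, known as an activator of Chd4, stood at 54.9, 53.4 and 50.7 CPM in Stag2KO against 58.4, 70.0 and 59.1 CPM in Stag2WT (-0.24, adjusted p = 0.0793). Zfp296 had a log2 fold change of 0.43 that missed the threshold (adjusted p = 0.0507). Zfp161, the SUMO ligase Zfp451 and Zfp516 measured -0.05, -0.04 and 0.01. Zfp462, Zfp532 and Zfp711 lay under 5 CPM.

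Among 7 genes known for silencing repeats or imprints, 4 were members and 1 rose. Zfp932, which silences endogenous retroviruses, measured 26.7, 34.7 and 34.3 CPM in Stag2KO and 20.7, 24.8 and 24.9 CPM in Stag2WT (0.44 ± 0.13, adjusted p = 0.0398). Leaving out any library other than Stag2KO replicate 1 gave it an adjusted p of 0.064 to 0.117. Of its 50-base words 45.2% also occur in transcripts under other gene symbols, most often Gm15446, so the split of reads among such genes is uncertain. Zfp445, which maintains imprints, had a log2 fold change of 0.26 (adjusted p = 0.0777), Zfp809, which silences retroviral DNA, of 0.13 and Zfp708 of -0.11. All 50-base words of Zfp708 (100%) also occur in transcripts under other gene symbols, which may be copies or gene models over the same locus. Zfp57, Zfp819 and Zfp42 lay under 5 CPM.

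The list of blood cell regulators held 6 members, of which Zfp521 rose, as given above. That is a called share of 16.7%, beside 22.7% of the tested genes of at least 5 CPM. Zfp608 measured 0.26 (adjusted p = 0.231) on the log2 fold change scale, Zfp292 0.14, Zfp318, a factor for IgD expression in B cells, 0.08, the ubiquitin ligase Zfp91 0.08 and Zfp467 -0.06. None of these 5 was called. Zfp423 and Zfp366 lay under 5 CPM.

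Members that work on RNA, ribosomes, ubiquitin or the spindle numbered 11. edgeR called 0 of them, with 1 at an unadjusted p under 0.05. Among all 242 members 18.6% were called, and among the tested genes of at least 5 CPM 22.7%. The difference of so short a list from these shares was not tested. DESeq2 and limma-voom called 0 of the 11 as well. Their median log2 fold change was -0.02 and the range ran from -0.16 for the ribosome biogenesis factor Zfp622 to 0.21 for Zfp346, which binds double-stranded RNA (adjusted p = 0.101). The spindle protein Zfp207 and the RNA-binding protein Zfp106 measured 0.06 each, the splicing factors Zfp326 and Zfp830 0.10 and -0.03, and Zfp598, the ligase that senses collided ribosomes, -0.11. Zfp259 stood at -0.09, Zfp277 at -0.02, Zfp330 at 0.02 and Zfp706 at -0.10.

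None of the 6 members with the most reads was called, beside 22.4% of the 49 members of at least 50 CPM. Of all tested genes of at least 5 CPM, 22.7% were called. Zfp207 stood at 557, 507 and 484 CPM in Stag2KO and 484, 518 and 480 CPM in Stag2WT. Zfp106 measured 217, 237 and 240 CPM against 217, 212 and 238 CPM, and Zfp91 216, 236 and 221 CPM against 215, 210 and 211 CPM. The groups overlapped in the first 2 of these genes, and in Zfp91 the lowest Stag2KO library lay just above the highest Stag2WT library. Zfp706 stood at 159, 172 and 178 CPM against 182, 179 and 185 CPM, Zfp740 at 156, 158 and 167 CPM against 152, 140 and 154 CPM and Zfp592 at 128, 128 and 138 CPM against 126, 119 and 136 CPM. The last gene overlapped between the groups, whereas all Stag2KO values lay below the Stag2WT values in Zfp706 and above them in Zfp740. Log2 fold changes of these 6 ran from -0.10 to 0.11. CPM is not per length, so these levels do not rank the genes by transcript number.

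By their sequence, 74 members had the KRAB pattern and at least 3 linkers, and 14 of these rose and 2 fell, with a median log2 fold change of 0.10. A further 58 had at least 3 linkers and no KRAB pattern, with 8 rises, 1 fall and a median of 0.10. Fewer than 3 linkers were found in 109, with 16 rises, 4 falls and a median of 0.08. This class was not split by the KRAB pattern, which some of its members hold, among them Zfp369, which rose. The called shares of the 3 classes were 21.6%, 15.5% and 18.3%, beside 22.7% of the tested genes of at least 5 CPM. The 3 classes thus had medians within 0.02 of each other, and 1 member, Zfp783, had no matched transcript. Shared sequence may make some values uncertain. More than 20% of the 50-base words of 19 members also occur in transcripts under other gene symbols, while 166 share under 1%. Such transcripts can be copies elsewhere or gene models over the same locus, and the search did not tell these apart.

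Few of the genes through which KRAB proteins act were called. Of 31 tested partner and heterochromatin genes, 1 rose and 1 fell (6.45%, beside 22.7% of the tested genes of at least 5 CPM). Their median log2 fold change was -0.04. Log2 fold changes lay above 0 for 11 of the 31 (35.5%, beside 48.3% of those tested genes). The groups did not overlap in 3 that were higher and 8 that were lower in Stag2KO. Together these were 35.5% of the 31, beside 46.7% of those tested genes, of which 23.1% were apart upward and 23.6% downward. The co-repressor Trim28 stood at 451, 417 and 405 CPM in Stag2KO and 407, 440 and 445 CPM in Stag2WT (-0.02, adjusted p = 0.848). Setdb1, the histone methyltransferase recruited by Trim28, stood at 131, 132 and 133 CPM against 131, 129 and 139 CPM (-0.01, adjusted p = 0.929). The groups overlapped in both. Ehmt2, a methyltransferase of histone H3, measured 202, 193 and 211 CPM against 172, 165 and 183 CPM (0.22, adjusted p = 0.0438), and leaving out any library other than Stag2WT replicate 3 gave 0.0628 to 0.153. Uhrf1, which guides maintenance DNA methylation and is high in dividing cells, fell, with 246, 243 and 220 CPM against 308, 348 and 317 CPM (-0.46, adjusted p = 0.00502). It fell beside the markers of dividing cells, of which 3 of 6 fell.

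Zbtb genes, a zinc finger family with a BTB domain in place of the KRAB box, were measured for comparison. Of 28 with at least 5 CPM, 4 rose and 1 fell, and 21 had a log2 fold change above 0, with a median of 0.15. The called share was 17.9%, beside 22.7% of the tested genes of at least 5 CPM. By direction, 14.3% rose against 11.5% of those tested genes, and 3.57% fell against 11.2%. The set follows the symbols of the count table. Zfp238, Zfp161 and Zfp295, now named Zbtb18, Zbtb14 and Zbtb21, were therefore counted as Zfp genes. Among them Zfp238 fell (-0.39), and Zfp161 (-0.05) and Zfp295 (-0.02) were not called. Zbtb16, the progenitor factor also called PLZF, stood at 25.9, 22.5 and 25.6 CPM in Stag2KO and 13.4, 11.0 and 13.7 CPM in Stag2WT (0.96, adjusted p = 0.00192). Zbtb46, a marker of classical dendritic cells, stood at 13.0, 14.6 and 11.9 CPM against 31.6, 35.0 and 26.2 CPM (-1.23, adjusted p = 0.00114). The other rises were Zbtb42 (0.88), Zbtb38 (0.37) and Zbtb34 (0.29). The difference between the Zbtb and Zfp genes was not tested.

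Zfp genes stand in clusters, and 62 members lie in 16 runs of at least 3 members that follow each other in the RefSeq gene order of GRCm38.p6. Each run held 0 to 2 called members, beside a called share of 18.6% over all 242 members and 22.7% of the tested genes of at least 5 CPM. Whether neighbours share calls was not tested. The run of Zfp398, Zfp282, Zfp212, Zfp956, Zfp777 and Zfp746, had all 6 log2 fold changes above 0 (0.04 to 0.32), and 2 of them rose. Zfp746, known as the parkin substrate PARIS, stood at 61.0, 52.5 and 59.7 CPM in Stag2KO and 46.8, 45.9 and 46.3 CPM in Stag2WT (0.32 ± 0.07, adjusted p = 0.021). Its neighbour Zfp777 stood at 39.3, 39.0 and 37.3 CPM against 34.0, 31.2 and 31.2 CPM (0.26 ± 0.07, adjusted p = 0.0409). For Zfp746, leaving out any library other than Stag2KO replicate 2 gave an adjusted p of 0.0523 to 0.0806. For Zfp777 it was 0.0507 to 0.105, whichever of the 6 was left out. Over all 6 such fits the log2 fold change ran from 0.28 to 0.38 for Zfp746 and from 0.24 to 0.30 for Zfp777.

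In the run of Zfp560, Zfp26, Zfp426, Zfp266 and Zfp846, the first 2 rose. Zfp560 measured 13.9, 12.0 and 12.7 CPM against 10.1, 8.14 and 9.63 CPM (0.47 ± 0.13, adjusted p = 0.0328), and Zfp26 45.0, 49.2 and 46.0 CPM against 40.3, 32.6 and 38.5 CPM (0.33 ± 0.09, adjusted p = 0.0391). Leaving out any library other than Stag2WT replicate 1 gave 0.0587 to 0.0957 for Zfp560 and 0.0665 to 0.113 for Zfp26. The run of Zfp709, Zfp882, Zfp617 and Zfp961 held 1 rise, Zfp709, at 11.0, 13.1 and 10.5 CPM against 9.49, 7.02 and 7.84 CPM (0.51 ± 0.15, adjusted p = 0.0479), which was 0.072 to 0.149 without any library other than Stag2WT replicate 1. In the run of Zfp760, Zfp229 and Zfp820 the median was 0.34, and Zfp760 rose, at 42.8, 47.6 and 46.1 CPM against 34.8, 37.2 and 36.1 CPM (0.34 ± 0.07, adjusted p = 0.0166). Its adjusted p was 0.0569 without Stag2KO replicate 2 and 0.06 without Stag2KO replicate 3.

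The falls Zfp948 and Zfp456 each lie in a run. The run of Zfp677, Zfp54, Zfp51, Zfp53, Zfp52 and Zfp948 reached from 0.47 for Zfp677 (adjusted p = 0.0521) at one end to -0.49 for Zfp948 at the other. In the run of Zfp595, Zfp953, Zfp456 and Zfp429 the median was -0.34 and 1 of 4 log2 fold changes lay above 0. Zfp429 in that run stood at 6.44, 6.02 and 0.472 CPM in Stag2KO and at 13.2, 11.0 and 11.9 CPM in Stag2WT, a log2 fold change of -1.49 ± 0.85 (adjusted p = 0.269). Stag2KO replicate 3 held 18 reads of it, the fewest of any member in any library, and without that library the log2 fold change was -0.95 (adjusted p = 0.00831). Of the 50-base words of Zfp429, 25.3% also occur in transcripts under other gene symbols, most often Rsl1. Within a group the highest library was a median of 1.12 times the lowest over all members in Stag2KO and 1.15 times in Stag2WT, while for Zfp429 in Stag2KO it was 13.7 times.

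The other 10 runs held no called member. These were Zfp82, Zfp566, Zfp260, Zfp382 and Zfp146 (0.03 to 0.62), Zfp60, Zfp626, Zfp59 and Zfp607 (-0.12 to 0.34), Zfp790, Zfp940, Zfp420 and Zfp27 (-0.04 to 0.44), and Zfp329, Zfp110 and Zfp128 (-0.05 to 0.23). Zfp382 at 0.62 missed the threshold (adjusted p = 0.0683), as did Zfp329 at 0.23 (adjusted p = 0.0512). The others were Zfp397, Zfp35 and Zfp191 (-0.03 to 0.10), Zfp472, Zfp952 and Zfp763 (-0.02 to 0.11), Zfp58, Zfp87 and Zfp748 (-0.07 to 0.11), and Zfp768, Zfp747 and Zfp764 (-0.05 to 0.18). The last runs were Zfp809, Zfp599 and Zfp810 (0.13 to 0.32) and Zfp944, Zfp758 and Zfp946 (-0.20 to 0.14).

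**Figure D4:**
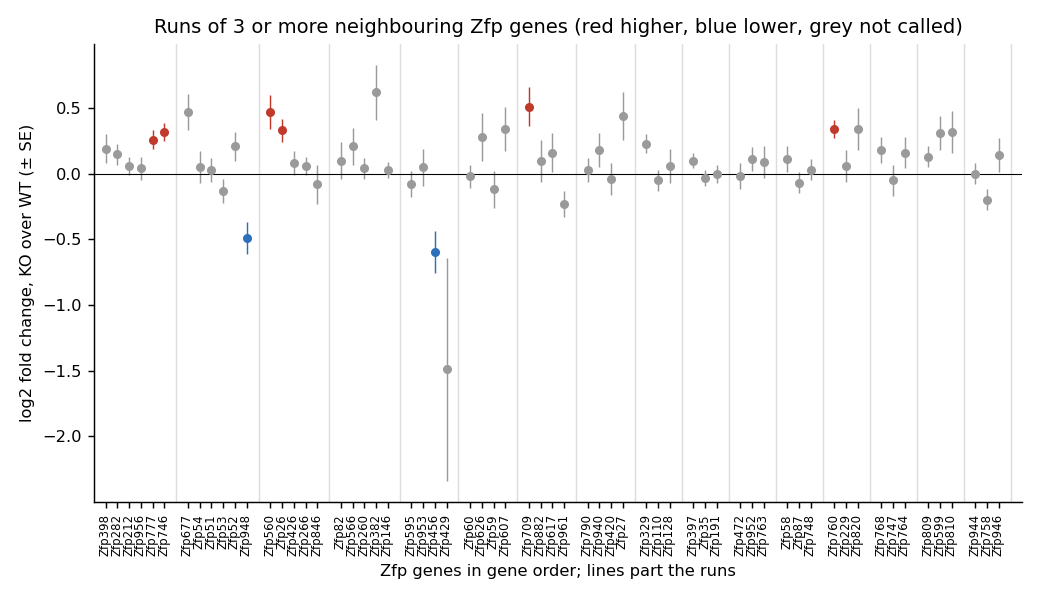
Log2 fold change of Stag2KO over Stag2WT (bars, 1 SE) for the 62 members in 16 runs of neighbouring Zfp genes, in gene order, with vertical lines between runs; red points were called higher, blue points lower, grey points were not called. Called and uncalled genes stand side by side within runs, and Zfp429 (-1.49) carries the widest bar, 0.85.

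A further 20 members rose, namely Zfp11, Zfp157, Zfp184, Zfp202, Zfp319, Zfp362, Zfp369, Zfp386, Zfp395, Zfp408, Zfp513, Zfp579, Zfp606, Zfp629, Zfp692, Zfp715, Zfp865, Zfp873, Zfp935 and Zfp950. Their log2 fold changes lay between 0.28 and 0.62, with adjusted p-values of 0.00943 to 0.0473. Zfp692 had the largest of these, but overlaps Zfp672. Zfp935 shares all of its 50-base words (100%) with transcripts under other gene symbols, which may be copies or gene models over the same locus. Of all 38 rises, 10 kept their call without any 1 library (Zfp141, Zfp219, Zfp286, Zfp408, Zfp521, Zfp523, Zfp687, Zfp704, Zfp938 and Zfp945), and 5 lost it whichever library was left out (Zfp184, Zfp777, Zfp865, Zfp873 and Zfp935).

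Promoters of 250 bases before to 50 after a start were matched in RefSeq (GRCm38.p6) for 202 of the 242 members. Where a gene had several starts, the one with the lowest coordinate was used, which on the minus strand is the most downstream. They were searched on both strands for a core of the binding motif of CTCF, the factor that stops cohesin at loop ends. The CTCF core was found in 21 of the 202 promoters (10.4%), beside 1011 of 7681 promoters (13.2%) of the tested genes of at least 5 CPM. It was present in 7 of 31 promoters of genes that rose (22.6%), in 1 of 7 of genes that fell (14.3%) and in 13 of 164 of uncalled genes (7.93%). A core of the ZNF143 motif, searched in the same way, was found in 11 of the 202 member promoters (5.45%) and in 227 of the 7681 (2.96%). The promoters of Zfp945, which rose, and Zfp367, which fell, are printed with the CTCF core in capitals, the first from chr17:22867085-22867384 and the second from chr13:64152324-64152623, both on the minus strand.
Zfp945 promoter: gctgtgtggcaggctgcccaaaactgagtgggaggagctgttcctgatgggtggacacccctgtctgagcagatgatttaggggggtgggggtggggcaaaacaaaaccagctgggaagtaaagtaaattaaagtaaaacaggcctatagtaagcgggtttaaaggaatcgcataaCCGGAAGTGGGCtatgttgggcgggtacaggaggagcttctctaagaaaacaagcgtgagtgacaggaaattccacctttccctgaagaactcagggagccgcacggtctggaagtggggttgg
Zfp367 promoter: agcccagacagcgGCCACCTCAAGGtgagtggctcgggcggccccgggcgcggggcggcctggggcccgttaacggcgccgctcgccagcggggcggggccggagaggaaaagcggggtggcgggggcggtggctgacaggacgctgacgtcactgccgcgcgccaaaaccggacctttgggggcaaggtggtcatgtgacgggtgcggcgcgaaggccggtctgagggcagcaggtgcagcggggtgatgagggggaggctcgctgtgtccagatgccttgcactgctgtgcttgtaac
In Zfp367 the core is read on the opposite strand of the printed sequence. Zfp367 has 2 listed starts, and the printed stretch belongs to the downstream one. The promoters differ in base content, with 7 CpG pairs in Zfp945 and 31 in Zfp367, beside a median of 16 over the members. A match is a description and shows no binding.

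Summed over the 242 genes, Zfp reads made up 0.888%, 0.947% and 0.914% of gene reads in the Stag2KO libraries and 0.825%, 0.818% and 0.865% in the Stag2WT libraries. The groups did not overlap, and the difference was 0.081 percentage points, a ratio of 1.10. With TMM scaling the sums were 8961, 9114 and 9036 CPM against 8487, 8411 and 8553 CPM, a ratio of 1.07. The percentage of reads outside annotated genes was also higher in every Stag2KO library than in every Stag2WT library, and its part in the Zfp sum was not tested.

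**Figure D5:**
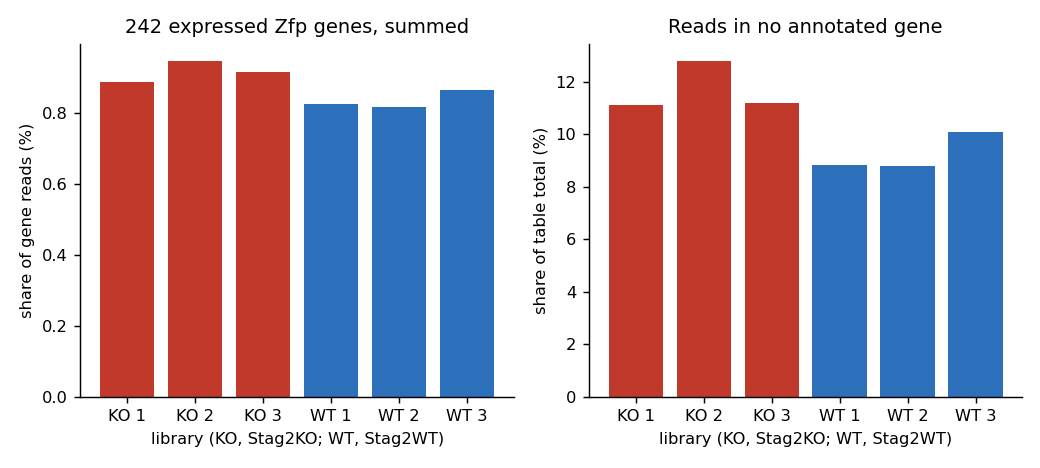
Share of gene reads taken by the 242 Zfp genes (left, percent) and share of reads in no annotated gene (right, percent of the table total) in each library, Stag2KO in red and Stag2WT in blue. The Zfp share is 0.888% to 0.947% in Stag2KO and 0.818% to 0.865% in Stag2WT, and the right panel places Stag2KO above Stag2WT as well, at 11.1% to 12.8% against 8.81% to 10.1%.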

How the data were processed

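The authors deposited raw read counts per gene symbol for 6 libraries. The submitters' processing notes name STAR 2.4, HTSeq 0.6.1, DESeq2 and build mm9, with library kit, strand setting and annotation not given in the sources used here. Counter totals that name no gene (reads in no gene 8.81% to 12.8%, aligned to more than 1 place 23.4% to 28.6%, ambiguous 2.02% to 2.2% of the table total) entered neither library sizes nor tests. Leaving out multiply aligned reads lowers the counts of near-identical copies.

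Groups follow the genotype label, and replicate numbers follow accession order. All genes were fitted in R 4.3.3 with edgeR 4.0.16 (TMM, filterByExpr, robust quasi-likelihood test, Benjamini-Hochberg adjustment over 15708 genes), and a call means an adjusted p under 0.05. Log2 fold changes are Stag2KO over Stag2WT and their errors are SE. The script was tested on simulated counts. Alternatives were DESeq2 1.42.0, voom of limma 3.58.1, other scaling and filters, no robust dispersion, the percentage of reads outside genes as a covariate, membership from 2 or 10 CPM and each library left out. A scaling by total gene reads only was chosen after seeing the data.

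The members, gene lists and tests were chosen with earlier results of these data known, so no test over a list is given. Named genes are the 8 largest rises and falls among called members whose groups do not overlap, the 6 with most reads, members with a known role, the 3 nearest the threshold on each side, runs of at least 3 neighbours, called KRAB partners with Trim28 and Setdb1, and Stag2. Other genes were named after their values were seen. Finger and KRAB classes rest on nucleotide patterns in GENCODE M21 transcripts (241 of 242 members matched), since no protein table was used here, and the KRAB pattern was loosened once before any fold change was compared. Gene order, overlaps and promoters come from RefSeq GRCm38.p6, where 242 members matched, 10 through older symbols. Because the counts were made on mm9, no gene coordinates other than those of printed promoters are given.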

Additional observations from a re-analysis of the deposited data

How the results depend on the processing

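No called Zfp gene changed sign under any alternative run. Leaving out 1 library gave 15 to 28 Zfp genes called higher and 3 to 6 called lower (38 and 7 with all 6). In these fits 12.3% to 15.9% of all tested genes were called, beside 21.2% with all 6. The difference in the Zfp share of gene reads was then 0.0657 to 0.0955 percentage points. With 1 library left out, 0 to 1 KRAB partner genes were called higher and 1 lower, and 3 to 4 Zbtb genes higher and 1 lower. With the percentage of reads outside annotated genes as a covariate, edgeR called 0 Zfp genes higher and 0 lower, 0 KRAB partners higher and 0 lower, and 0 Zbtb genes higher and 0 lower; unadjusted p-values under 0.05 numbered 15, 3 and 4 in these groups. The median log2 fold change of the Zfp genes was 0.09 with and without this covariate. That percentage was higher in every Stag2KO than in every Stag2WT library, so the covariate also takes up part of the genotype difference. Of the KRAB partners, 0 were called higher with no filter beyond 1 read, and DESeq2 called 2 lower. Calls of Zfp genes and KRAB partners were also lost with no filter beyond 1 read (Zfp777, adjusted p = 0.0612 by edgeR, Zfp873, 0.0617, Zfp935, 0.07, Zfp950, 0.0584, and Ehmt2, 0.0574), with a filter of 5 CPM in 3 libraries (Zfp709, 0.0511), without robust dispersion (Zfp709, 0.0541, Zfp319, 0.0561, and Zfp386, 0.0538), with median-ratio size factors (Zfp319, 0.0506) and with total gene reads only (Zfp800, 0.0951). The other fits with all 6 libraries gave 35 to 48 rises and 6 to 9 falls among the same 242 genes, and 3 to 6 rises and 1 fall among the Zbtb genes. Membership from a mean of 2 CPM gave 45 rises and 7 falls, and from 10 CPM 29 rises and 5 falls. Scaling by total gene reads only, chosen after seeing the data, gave 48 rises and 6 falls, with the median of the Zfp genes at 0.14 and of all tested genes at 0.05. No paired analysis was possible because replicates were numbered in accession order and no label pairs the libraries. With 3 libraries a group, small changes of genes near 5 CPM are at the limit of what the SE resolves: the median SE was 0.15 at 5 to 10 CPM and 0.07 at 50 CPM and above.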

Other observations

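Genes whose names begin with Zfp but carry further letters, and Zfp36, were outside the rule. Zfp36l1, which destabilizes AU-rich mRNAs, fell, at 15.9, 13.2 and 15.1 CPM in Stag2KO and 22.4, 26.0 and 19.8 CPM in Stag2WT, which by edgeR is a log2 fold change of -0.63 (adjusted p = 0.0125). Its relatives Zfp36 and Zfp36l2 had log2 fold changes of -0.28 (adjusted p = 0.115) and -0.01. Zfpm1, the GATA1 cofactor also called FOG, stood at 112, 117 and 90.0 CPM against 145, 176 and 130 CPM and fell (-0.50, adjusted p = 0.0417). It fell beside erythroid markers, of which 3 of 6 fell, and the part of cell makeup in it was not tested.

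Next to Zfp429, the members that varied most within a group were Zfp658, which ranged 2.09-fold among the Stag2KO libraries, and Zfp868, which ranged 1.83-fold among the Stag2WT libraries.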
